A study of Mus musculus with 2 samples.

Results

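The AMP-activated protein kinase (AMPK) subunit genes were described in gastrocnemius, the large and mainly fast calf muscle of the hind limb. The 7 mouse genes for its subunits (Prkaa1, Prkaa2, Prkab1, Prkab2, Prkag1, Prkag2 and Prkag3) were taken by name together with Stk11, which encodes the upstream kinase LKB1. They make 8 of the 14675 annotated genes with reads, and all 8 had reads in each library. RNA was sequenced as long reads from male B6CASTF1/J mice aged 2 months, which are F1 hybrids between the inbred strains C57BL/6J and CAST/EiJ, and the labels name no treatment. The labels give 2 libraries of 2 µg of RNA each, replicate 1 and replicate 2, which form 1 group. The animals have different numbers but a shared donor identifier, so the spread between the libraries may be partly technical. With 1 group there was no contrast of conditions to test, and no p-value is given.

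AMPK is a heterotrimer of a catalytic alpha subunit, a beta subunit that binds glycogen and joins the complex, and a gamma subunit that binds AMP, ADP and ATP. When cellular energy falls, LKB1 phosphorylates a threonine in the activation loop of the alpha subunit, and the active kinase favours glucose uptake and fat oxidation over synthesis. Skeletal muscle is known for complexes of the alpha 2 and beta 2 subunits, and gamma 3 is known as a subunit largely restricted to skeletal muscle with many fast fibres.

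Both alpha genes encode that activation loop, and the stretch is shown as a place where the paralogs are alike. Not every read crosses it, and the effect of such likeness on the assignment of reads was not tested. The capitals mark the codon of the threonine that LKB1 phosphorylates, which is codon 172 of Prkaa2-201 and codon 183 of Prkaa1-201. Both stretches are 81 bases of coding sequence read from GENCODE M21 transcripts (build GRCm38, the genome of mm10), from exon 4 into exon 5.
Prkaa2 (chromosome 4, 105049348 to 105051208, minus strand): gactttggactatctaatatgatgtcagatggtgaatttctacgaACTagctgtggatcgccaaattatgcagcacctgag
Prkaa1 (chromosome 15, 5168706 to 5170002, plus strand): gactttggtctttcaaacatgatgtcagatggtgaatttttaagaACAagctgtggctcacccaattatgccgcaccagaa
The stretches shared 68 of 81 bases, and all 27 codons encoded the same residue in both genes.

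One paralog supplied most reads of the alpha and beta classes, and 2 paralogs shared nearly all gamma reads. Levels are given as reads of all models of a gene per 1000000 reads of annotated genes (CPM). A long read was taken to stand for 1 molecule, so reads were not divided by length, and annotated transcript lengths are given beside each gene. The effect of transcript length on the number of reads of a gene was not tested, so ratios between genes are ratios of reads. Annotated genes held 1107128 reads in replicate 1 and 1402875 reads in replicate 2. A count of 3 reads, the upper limit that a count of 0 allows, corresponds to 2.71 and 2.14 CPM. Coordinates are those of mm10 as the deposited annotation gives them. In whole muscle, fewer cells of a type and less RNA per cell cannot be told apart.

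**Figure D1:**
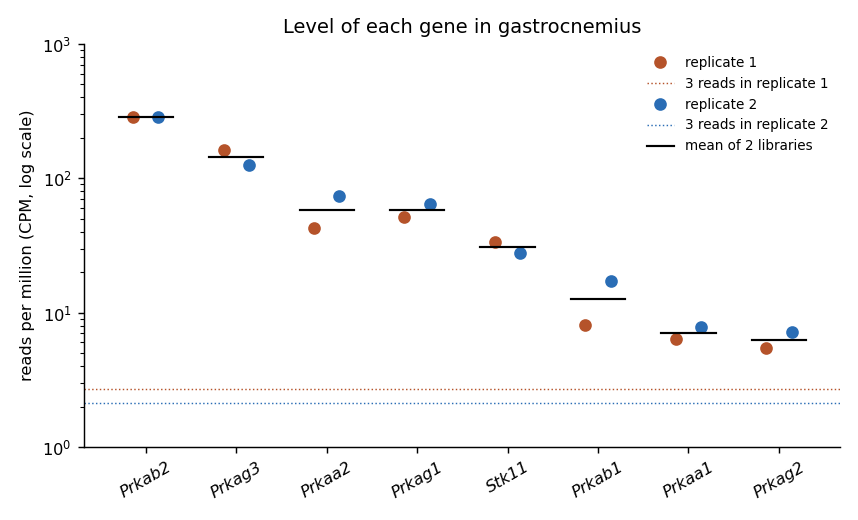
Level of each gene in CPM on a log axis, with a point for replicate 1 and a point for replicate 2, a bar at their mean and dotted lines at the level of 3 reads. Prkab2 lies highest at 287 CPM in each library, and Prkag2 lies lowest at 5.42 and 7.13 CPM.

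Of the catalytic subunits, Prkaa2, the alpha 2 gene (chromosome 4, 105029874 to 105109890, minus strand, leading transcript of 7969 nt), had 47 reads in replicate 1 and 104 reads in replicate 2. These are 42.5 and 74.1 CPM, with a mean of 58.3 ± 22.4 CPM (SD, n = 2). Prkaa1, the alpha 1 gene (chromosome 15, 5143861 to 5181899, plus strand, leading transcript of 4655 nt), had 7 and 11 reads, or 6.32 and 7.84 CPM. Prkaa2 was therefore above Prkaa1 in both libraries. Of all alpha reads, Prkaa2 held 87.0% in replicate 1 and 90.4% in replicate 2. Their 95% intervals by Wilson's method, which is used for all shares below, ran over 75.6 to 93.6% and 83.7 to 94.6%. The log2 ratio of Prkaa2 over Prkaa1 reads, with a prior count of 0.5, was 2.92 ± 0.37 (SD, n = 2), which exceeded the spread. A ratio was said to do so where both libraries gave it the same sign and 0 was more than 2 SD away from the mean. This rule takes no account of counting error, which is largest for genes with few reads.

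Of the scaffold subunits, Prkab2, the beta 2 gene (chromosome 3, 97658193 to 97673812, plus strand, leading annotated transcript of 5006 nt), had 318 and 402 reads. Its level was 287 CPM in each library, and it ranked 338 of 12755 genes with reads in replicate 1 and 372 of 13485 in replicate 2. Prkab1, the beta 1 gene (chromosome 5, 116013586 to 116024508, minus strand, 2026 nt), had 9 and 24 reads, or 8.13 and 17.1 CPM. Prkab2 made up 97.2% of beta reads in replicate 1 (94.9 to 98.5%) and 94.4% in replicate 2 (91.8 to 96.2%). The log2 ratio of Prkab2 over Prkab1 reads was 4.55 ± 0.73 (SD, n = 2) and exceeded the spread. It depended on which models were counted: on annotated transcripts alone the ratio was 0.97 ± 0.47, because the leading Prkab2 model described below is not an annotated transcript.

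Of the nucleotide-binding subunits, Prkag3, the gamma 3 gene (chromosome 1, 74738922 to 74749221, minus strand, 2832 nt), had 180 and 176 reads, or 163 and 125 CPM. Prkag1, the gamma 1 gene found in most tissues (chromosome 15, 98812797 to 98831521, minus strand, 1652 nt), had 57 and 90 reads, or 51.5 and 64.2 CPM. Prkag2, the gamma 2 gene known for its part in heart disease in humans (chromosome 5, 24862744 to 25100642, minus strand, 2205 nt), had 6 and 10 reads, or 5.42 and 7.13 CPM. The order Prkag3, Prkag1, Prkag2 was the same in both libraries. Prkag3 held 74.1% of gamma reads in replicate 1 (68.2 to 79.2%) and 63.8% in replicate 2 (57.9 to 69.2%). Prkag1 held 23.5% (18.6 to 29.2%) and 32.6% (27.4 to 38.3%), and Prkag2 held 2.47% (1.14 to 5.28%) and 3.62% (1.98 to 6.54%). The log2 ratio of Prkag3 over Prkag1 reads was 1.31 ± 0.49, that of Prkag3 over Prkag2 reads was 4.43 ± 0.51 and that of Prkag1 over Prkag2 reads was 3.13 ± 0.03 (SD, n = 2 each). The SD of 0.03 does not cover the counting error of 6 and 10 Prkag2 reads. All 3 exceeded the spread over all models, but Prkag3 over Prkag1 did not on annotated transcripts alone or on models with every coding intron, where it was 0.91 ± 0.66 in each case.

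**Figure D2:**
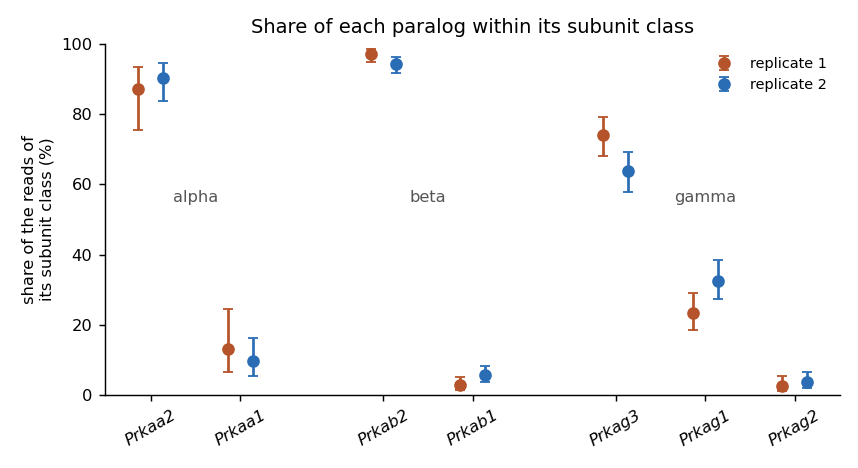
Share of each paralog in the reads of its subunit class (%), with a point and a Wilson 95% interval for each library. The Prkaa2 and Prkab2 intervals lie above 50% in both libraries, and the Prkag3 intervals lie above those of Prkag1 and Prkag2.

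The bases before the starts of the gamma genes are shown because gamma is the class with the muscle-restricted paralog and with 3 levels to set side by side. Each is the 250 bases before the start in RefSeq (GRCm38.p6), read along the gene's strand, and the capitals mark the E box, CANNTG, the motif that muscle transcription factors of the MyoD family bind. The pattern reads the same on both strands, and a match is a description of the letters, not a shown binding site.
Prkag3 (chr1:74748956-74749205, minus strand): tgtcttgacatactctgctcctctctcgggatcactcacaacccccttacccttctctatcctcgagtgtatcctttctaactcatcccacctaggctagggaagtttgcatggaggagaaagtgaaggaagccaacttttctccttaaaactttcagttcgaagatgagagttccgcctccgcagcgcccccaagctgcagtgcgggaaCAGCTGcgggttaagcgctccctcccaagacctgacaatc
Prkag1 (chr15:98831509-98831758, minus strand): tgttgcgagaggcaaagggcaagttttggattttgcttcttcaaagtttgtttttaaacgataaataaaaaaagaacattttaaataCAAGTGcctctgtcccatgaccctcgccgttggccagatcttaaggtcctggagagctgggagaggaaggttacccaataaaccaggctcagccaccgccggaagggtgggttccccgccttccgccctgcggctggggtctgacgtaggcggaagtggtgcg
Prkag2, start of the short form (chr5:24908510-24908759, minus strand): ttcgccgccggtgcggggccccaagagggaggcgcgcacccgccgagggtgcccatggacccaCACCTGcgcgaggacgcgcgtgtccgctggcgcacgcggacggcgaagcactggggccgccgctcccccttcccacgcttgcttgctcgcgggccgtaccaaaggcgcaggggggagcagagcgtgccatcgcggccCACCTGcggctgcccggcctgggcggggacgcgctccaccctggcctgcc
An E box was present in 66.2% of the 32851 mouse promoter windows of this length. Prkag3 had 1, of the form CAGCTG, which begins 40 bases before the start and is found in 13.0% of windows. Prkag1 had 1, beginning 163 bases before the start, and the short-form Prkag2 window had 2, the nearer beginning 50 bases before it. CG dinucleotides numbered 9 in the Prkag3 window, 12 in the Prkag1 window and 34 in the Prkag2 window, against a median of 6 over all windows. The short-form window of Prkag2 thus held more CG dinucleotides than 96.5% of windows, and that of Prkag3 more than 59.7%. The GC box GGGCGG, searched on both strands and found in 32.7% of windows, had 0 matches in the Prkag3 window and 1 in each of the other 2. Prkag2 windows at starts further upstream, not shown, held 4 and 23 CG dinucleotides, more than 37.8 and 86.7% of windows. They had 3 and 1 E boxes and 0 and 2 GC boxes. The main windows of Prkaa1, Prkaa2, Prkab1, Prkab2 and Stk11 held between 18 and 45 CG dinucleotides, and of these only Stk11 had an E box, with 2.

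Summed over paralogs, beta reads exceeded gamma reads and gamma reads exceeded alpha reads in both libraries. This order depended on which models were counted. On annotated transcripts alone beta was the lowest class, with 32 and 59 reads, beside 36 and 75 for alpha and 127 and 148 for gamma, because the leading Prkab2 model is not an annotated transcript. Without genomic models beta and gamma were close, at 235 and 351 beta reads beside 234 and 268 gamma reads. Over all models the alpha class summed to 48.8 and 82.0 CPM, the beta class to 295 and 304 CPM and the gamma class to 219 and 197 CPM. Beta reads were 6.06 and 3.70 times alpha reads, gamma reads were 4.50 and 2.40 times alpha reads, and beta reads were 1.35 and 1.54 times gamma reads. The alpha class was the one that differed most between the libraries. Its main gene, Prkaa2, also has the longest leading transcript of the family, and the part of length in that difference was not tested.

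Stk11 (chromosome 10, 80115803 to 80130682, plus strand, 2566 nt), the gene of the LKB1 kinase, had 37 and 39 reads, or 33.4 and 27.8 CPM. It lay below the summed alpha class in both libraries. Stradb and Cab39, which encode the pseudokinase and scaffold partners that LKB1 needs for activity, lay above it, with 164 and 166 CPM for Stradb and 152 and 158 CPM for Cab39.

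From high to low, the mean level ran Prkab2, Prkag3, Prkaa2, Prkag1, Stk11, Prkab1, Prkaa1 and Prkag2. Of the 7 neighbouring pairs in this order, 3 differed beyond the spread: Prkab2 over Prkag3 by 1.00 ± 0.26, Prkag1 over Stk11 by 0.91 ± 0.41 and Prkaa1 over Prkag2 by 0.17 ± 0.05 on the log2 scale (SD, n = 2 each). The last of these rests on at most 11 reads per gene and library. None of the 3 held under every choice of models. On annotated transcripts alone Prkab2 had a mean of 35.3 CPM, below Prkag3 (105 CPM), Prkaa2 (58.0 CPM) and Prkag1 (55.9 CPM), and its log2 ratio over Prkag3 turned to -1.55 ± 0.53. Without genomic models that ratio was 0.63 ± 0.38, within the spread, and with every coding intron it was 1.62 ± 0.46. On annotated transcripts and on models with every coding intron, Prkag1 over Stk11 (1.02 ± 0.98 and 1.04 ± 0.94) and Prkaa1 over Prkag2 (0.27 ± 0.38 and 0.072 ± 0.65) did not exceed the spread. Prkag3 over Prkaa2, Stk11 over Prkab1 and Prkab1 over Prkaa1 had the same order in both libraries but did not exceed the spread. Prkaa2 and Prkag1 changed places, with a log2 ratio of -0.28 in replicate 1 and 0.21 in replicate 2. The protein-coding genes nearest in level to Prkab2 over the 2 libraries were Rab12, Sgta and Rilpl1, with the larger log2 difference at most 0.05. Those nearest to Prkag3 were Mllt11, Psmd6 and Mapk12 (at most 0.08), and those nearest to Prkaa2 were Acad12, Vezf1 and Rrp12 (at most 0.04). Prkag1 lay closest to Faap100, Mrps9 and Rcc1l (0.03), and Stk11 to Rnf157, Eftud2 and Vps51 (at most 0.04). With 2 libraries this is likeness of level only.

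Each read belongs to a transcript model to which the authors' annotation step gave a class. Annotated transcripts match a GENCODE chain of splice junctions, incomplete splice matches hold part of one, 2 further classes hold new combinations of annotated splice sites or unannotated splice sites, and genomic models overlap the gene without matching its junctions. Over all annotated genes, annotated transcripts held 65.8% of reads and genomic models 2.66%. Prkab1 was almost wholly annotated, at 100% in replicate 1 and 95.8% in replicate 2. Prkaa2 (63.8 and 66.3%) and Prkag1 (59.6 and 66.7%) were near the share of all genes. Prkag3 was lower, at 49.4 and 46.6%, and Prkab2 lowest, at 7.23 and 8.96%. Genomic reads made up 34.0 and 20.2% of Prkaa2 reads and 28.9 and 18.7% of Prkab2 reads, and no other gene of the family had more than 7 such reads in a library.

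**Figure D3:**
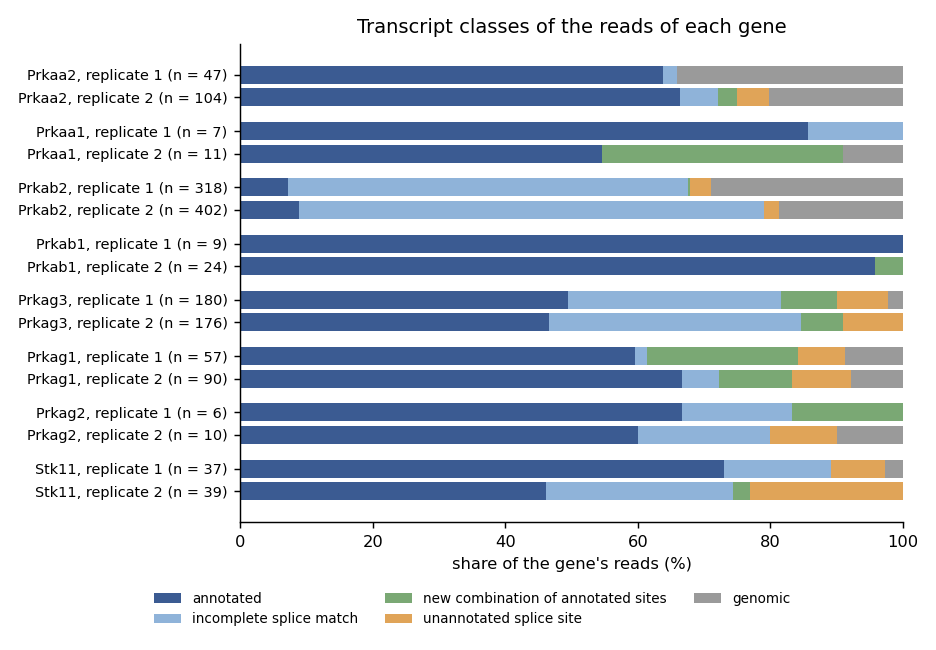
Share of each gene's reads (%) by transcript class, with a bar for each library and the gene's number of reads in brackets. Prkab2 is mostly incomplete splice matches, and Prkaa2 and Prkab2 carry the largest genomic shares.

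Prkaa2 had 1 annotated transcript, Prkaa2-201 with 9 exons, and it held 30 and 69 reads. These reads spanned the full chain of 8 introns, and they were 96.8% of the spliced Prkaa2 reads in replicate 1 and 83.1% in replicate 2. The remaining spliced reads were spread over 1 further chain in replicate 1 and 11 in replicate 2, and no such chain was found in both libraries. Another 16 and 21 Prkaa2 reads had no junction. The largest such model of replicate 1, with 16 reads, covered the whole 6457-nt last exon and ended 709 nt past the annotated end. That of replicate 2, with 20 reads, lay over the last 2696 nt of the exon and ended 714 nt past the annotated end. Most of that exon is 3' UTR, which is 6221 nt long.

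Prkaa1 reads followed Prkaa1-201, with 6 reads in each library. In replicate 2, 4 of 10 reads that left exon 2 joined exon 4 directly and skipped exon 3 (5164712 to 5164805, 94 nt, a length that is not a multiple of 3). In replicate 1, 0 of 6 did so. The upper Wilson bound of the replicate 1 share is 39.0%. The replicate 2 share is 40.0%, with bounds of 16.8 and 68.7%, so the intervals overlap.

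The Prkab2 reads were led by a model with 7 exons and no name in the annotation, which held 192 reads in replicate 1 (60.4%, 54.9 to 65.6%) and 275 reads in replicate 2 (68.4%, 63.7 to 72.8%). It shares its last 6 introns with Prkab2-201 and differs at the front. Prkab2-201 begins with a 158-nt exon (97658212 to 97658369), followed by a 219-nt intron in the 5' UTR. The 7-exon model instead runs without a junction from 97658214 to 97658766, a first exon of 553 nt. The files give 1 start for each model and not for each read. Reads that begin inside exon 2 and reads that continue through the short intron therefore cannot be told apart. Prkab2-201 itself held 19 and 33 reads, and a chain with an unannotated donor at 97658460 held 7 reads in each library. By first junction, 86.3 and 84.7% of spliced Prkab2 reads had the merged front, 8.41 and 10.1% the annotated first intron and 3.54 and 2.14% the unannotated donor. The annotated start codon lies in exon 2, so all 3 fronts precede the same coding introns. All 6 coding introns were present in 96.5 and 96.9% of spliced reads. The 92 and 75 Prkab2 reads with no junction lay mostly in the 4085-nt last exon, and the models of both libraries ended at its annotated end.

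Prkab1 reads were assigned mainly to Prkab1-202 (8 and 14 reads) and Prkab1-201 (1 and 7 reads). These differ by a 105-nt intron in the 5' UTR, which is removed in Prkab1-202. The donor after this intron was the first of 1 of 9 spliced reads in replicate 1 (11.1%, 1.99 to 43.5%) and 8 of 24 in replicate 2 (33.3%, 18.0 to 53.3%). Reads that keep the intron and Prkab1-202 reads that begin inside exon 2 cannot be told apart, as for Prkab2.

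**Figure D4:**
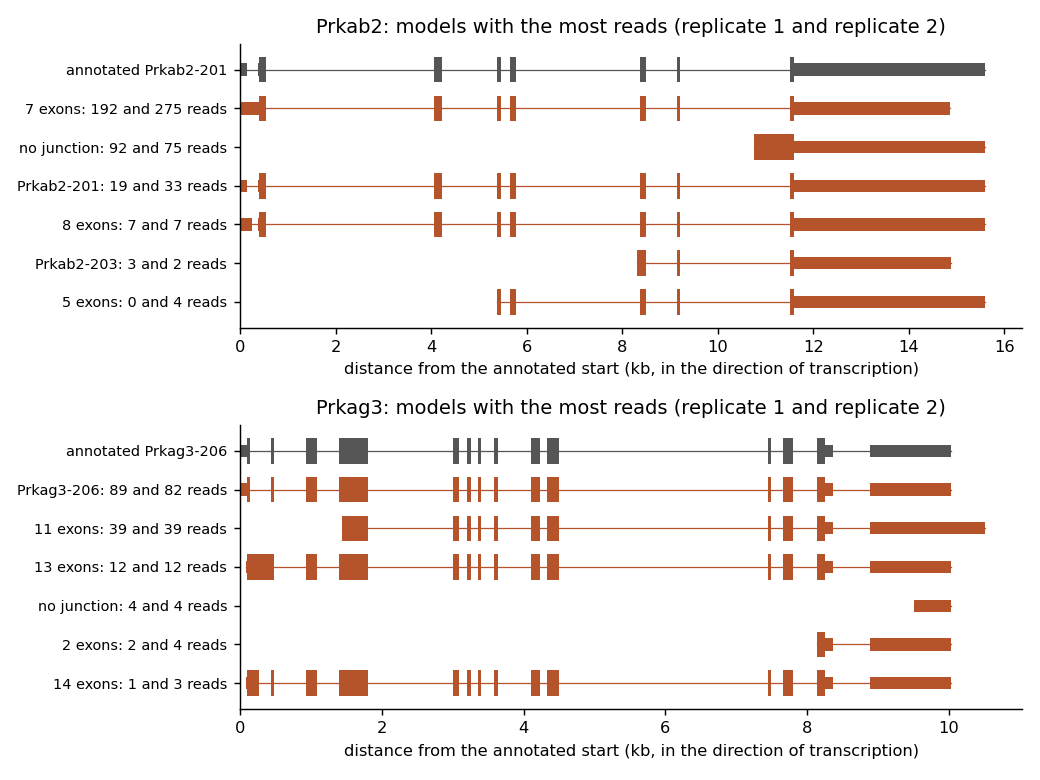
Models of Prkab2 (top) and Prkag3 (bottom) with the most reads, drawn as boxes for exons and lines for introns against the distance from the annotated start (kb); grey shows the annotated transcript, labels give reads in replicate 1 and replicate 2, and tall boxes lie between the annotated start and stop codons. In Prkab2 the 7-exon model with 192 and 275 reads lacks the first intron, and in Prkag3 the 11-exon model with 39 and 39 reads begins inside exon 4.

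Prkag3 had the most varied chains of the family, with 30 in replicate 1, 29 in replicate 2 and 10 found in both. Those 10 held 87.5 and 84.3% of its spliced reads. Prkag3-206, with 14 exons, led with 89 reads (49.4%, 42.2 to 56.7%) and 82 reads (46.6%, 39.4 to 54.0%). The second chain, with 39 reads in each library, had 11 exons and began at 74747518 inside exon 4. This is downstream of the annotated start codon in exon 1. All models that open with the exon 4 donor together took 26.1% of spliced reads in replicate 1 (20.2 to 33.1%) and 26.7% in replicate 2 (20.7 to 33.8%). Whether these are molecules that start there or molecules read in part cannot be told apart from the files. The model of another chain, with 12 reads in each library, ran from inside exon 1 through the first intron to the end of exon 2 in a first exon of 396 nt. Molecules that keep this intron and Prkag3-206 molecules read in part from exon 2 cannot be told apart here either.

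The 3' end of Prkag3 was more uniform. Prkag3-206 has an intron of 526 nt (74740061 to 74740586) in its 3' UTR, and its junction lies 121 nt after the stop codon. All 174 Prkag3 reads of replicate 1 and all 172 of replicate 2 that bear on this intron had removed it. The share that kept it was 0% in each library, with upper Wilson bounds of 2.16 and 2.19%. Prkag3-201, which ends inside this intron at 74740205, was not read.

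Of Prkag1 reads, 34 and 60 followed Prkag1-201 with 12 exons. First junctions differed. Of spliced reads, 67.3 and 74.7% left the annotated first exon at 98831430. Another 13 of 52 and 10 of 83 left at 98830887, also the end of an annotated first exon, and 5.77 and 7.23% left at the unannotated 98831135. The models at the latter 2 donors begin at 98831454, inside the exon that ends at 98831430. Molecules that continue past 98831430 and molecules that begin downstream of it cannot be told apart. From the next exon on the reads were alike: each of the 10 scored internal exons was included, on the mean of the libraries, in at least 96.6% of the reads that span it.

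Most Prkag2 reads had the junctions of the short form, in which the gene's long upstream exons are absent. Of its spliced reads, 5 of 6 in replicate 1 (83.3%, 43.6 to 97.0%) and 7 of 9 in replicate 2 (77.8%, 45.3 to 93.7%) opened with the first donor of Prkag2-203, at 24908323. Reads with exons upstream of it numbered 1 and 2. These upstream forms pass through the same donor. Long-form molecules read in part from its exon therefore cannot be told apart from the short form. At the second exon of the short form, spliced Prkag2 reads, those with upstream exons included, used a pair of acceptors 3 bases apart. The acceptors are shown with the 12 bases on each side, in coding sequence read from GENCODE M21 (chromosome 5, minus strand). The capitals mark the 3 extra bases.
Prkag2-202 (exon begins at 24889188): tccaggaggaagCAGaagactcagaaa
Prkag2-203 (exon begins at 24889185): tccaggaggaagaagactcagaaa
The shorter version was used by 4 and 8 reads and the longer by 2 and 1 reads, numbers too small to set the shares apart.

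Stk11-201, the long form with 10 exons, held 26 of 37 Stk11 reads in replicate 1 (70.3%, 54.2 to 82.5%) and 18 of 39 in replicate 2 (46.2%, 31.6 to 61.4%). Another annotated form, Stk11-210, leaves exon 8 for a different last exon (80128391 to 80128512). Its junction had 0 of 36 reads in replicate 1 and 0 of 37 in replicate 2, which allows a share of up to 9.64 and 9.41%. All 36 and 37 reads entered exon 9 of the long form. At the front, 26 and 18 spliced reads left the annotated exon 1 at 80116907. Another 3 and 10 left at 80117546, a donor that ends no annotated first exon. The first exon of that model, at 80116907 to 80117546, begins after the annotated start codon. Its first base is the last base of annotated exon 1, and model ends can be drawn to annotated ends. Molecules that continue from exon 1 into the intron and molecules that begin after the start codon therefore cannot be told apart. The shares at this donor were 8.33% (2.88 to 21.8%) in replicate 1 and 27.0% (15.4 to 43.0%) in replicate 2, and the intervals overlap.

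Internal coding exons were near constant across the family. Of 43 annotated internal exons with at least 10 spanning reads in each library, from Prkaa2, Prkab2, Prkag1, Prkag3 and Stk11, 41 were included in at least 90% of those reads on the mean of the libraries. The exceptions were exon 2 of Prkab2, which is part of the merged front, and exon 2 of Prkag3 (40 nt), at 81.6 and 82.9%. The Prkag3 exon was skipped outright by 1 and 2 reads, and its donor was the first of 21 and 14 spliced reads. Prkaa1, Prkab1 and Prkag2 had too few reads for this count.

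The reads that hold every coding intron of the leading annotated transcript give the order of classes found over all models, unlike annotated transcripts alone. They numbered 36 and 75 for alpha, 227 and 338 for beta and 127 and 150 for gamma. By gene, Prkab2 had 218 and 317, Prkag3 89 and 82, Prkag1 34 and 60 and Prkaa2 30 and 69. The criterion is not equal between genes, since the leading transcript has 6 coding introns in Prkab2 and 12 in Prkag3. It was met by 96.5 and 96.9% of spliced Prkab2 reads but by 50.6 and 47.7% of spliced Prkag3 reads. The part of this in the order of classes was not tested.

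Between the libraries, of the 5 genes of the family with a sum of 50 reads or more, 0 differed by over 2-fold. The background was 190 of 4294 genes, or 4.42%: 23 genes (0.536%) were called toward replicate 1 and 167 genes (3.89%) toward replicate 2. This split moved with the scaling, since 40 genes were called toward replicate 1 and 104 toward replicate 2 with median-ratio size factors. The log2 ratio of replicate 1 over replicate 2 was -0.80 for Prkaa2 (exact binomial 95% interval -1.33 to -0.29) and 0.37 for Prkag3 (0.07 to 0.68), and these 2 intervals exclude 0. Centred on genes of like transcript length, the Prkaa2 value was -0.48 and the Prkag3 value 0.51. It was 0.00 for Prkab2, -0.31 for Prkag1 and 0.27 for Stk11, with intervals that include 0. The median of all 4294 genes was -0.11. The 3 genes under 50 reads had log2 ratios of -1.03 (Prkab1), -0.28 (Prkaa1) and -0.35 (Prkag2). Prkab1 was thus 2.04-fold apart, on 33 reads in all. The intervals cover counting error only, and 1 library against 1 library has no replicate check.

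Transcript length moved with this ratio. The median was 0.01 for genes with a leading transcript of up to 2 kb, -0.13 for those over 2 and up to 4 kb, -0.30 for those over 4 and up to 6 kb and -0.33 for longer ones. Prkaa2, the longest of the family, lay above 15.4% of genes within 1.5-fold of its length. Prkag3 lay above 91.3%, Stk11 above 84.4%, Prkab2 above 77.1% and Prkag1 above 22.9% of theirs. Fibre markers moved as well: 7 of 7 slow fibre genes were over 2-fold higher in replicate 2, with a median of -1.59 and a summed level of 1447 CPM in replicate 1 and 5324 CPM in replicate 2. Of 9 fast fibre genes, 7 were higher in replicate 1, with a median of 0.42 and a summed level of 231829 and 214682 CPM. The fast fibre gene called at 2-fold, Myh1, a fast myosin heavy chain, went toward replicate 2 with 1370 and 5362 reads and a log2 ratio of -1.63. The part of fibre makeup in the ratios of Prkaa2 and Prkag3 was not tested.

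**Figure D5:**
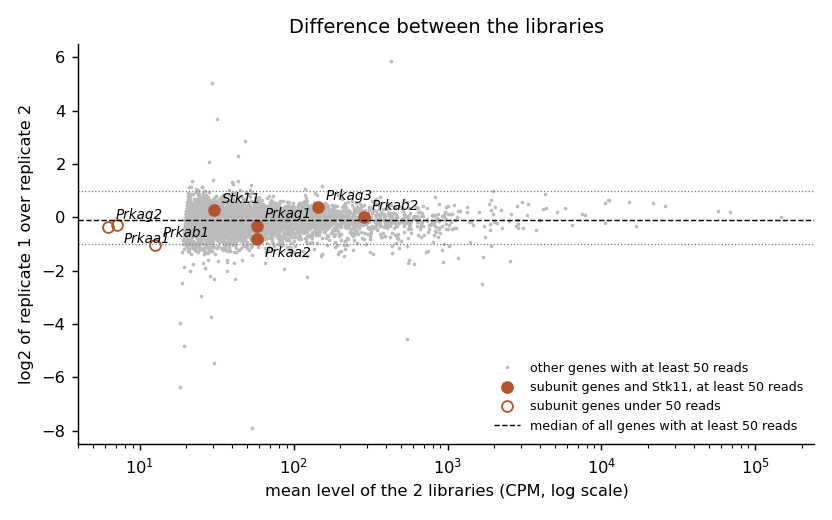
Log2 ratio of replicate 1 over replicate 2 against mean level (CPM, log axis) for the genes with at least 50 summed reads, with the AMPK genes in colour, those under 50 reads as open circles, dotted lines at 2-fold and a dashed line at the median of -0.11. All 5 filled points lie between the dotted lines, with Prkag3 at 0.37 and Prkaa2 at -0.80.

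The rest of the pathway was read at a range of levels. Its few calls between the libraries went toward replicate 2, as did 167 of the 190 calls over all genes. Upstream, 1 of 10 tested genes passed 2-fold, where 4.42% of all tested genes did: Map3k7, the kinase TAK1, with 15 and 59 reads and a log2 ratio of -1.60. Stradb, Cab39 and Lamtor1, an anchor of the lysosomal Ragulator complex, were the most abundant, and their log2 ratios lay between -0.11 and -0.01. Of 6 tested regulators, 0 passed. Ppp2ca, a catalytic subunit of the phosphatase PP2A, and Ppm1a, a phosphatase, encode enzymes that can act on the alpha subunit. Ppp2ca was at 204 and 317 CPM, Ppm1a at 201 and 210 CPM and Ppp2r5a, a regulatory PP2A subunit, at 95.7 and 98.4 CPM. Of the 4 tested AMPK-related kinases that LKB1 also activates, 0 passed; Snrk was at 63.2 and 83.4 CPM, Mark3 at 64.1 and 73.4 CPM and Mark2 at 38.8 and 39.9 CPM. Ppm1e, Brsk1, Brsk2 and Ak4 had no listed read.

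Among AMPK substrates, 2 of 17 tested genes passed 2-fold, both higher in replicate 2, where 3.89% of all tested genes were called that way. They were Tsc2, an inhibitor of mTORC1 signalling, with 57.8 and 138 CPM and a log2 ratio of -1.24, and Tbc1d4, a regulator of glucose transporter traffic, with 14.5 and 34.2 CPM and a log2 ratio of -1.21. The most read substrate was Gys1, the muscle glycogen synthase, at 288 and 357 CPM, close to the level of Prkab2. Mff, a mitochondrial fission factor, was at 124 and 136 CPM, and Kif5b, a kinesin heavy chain, at 84.9 and 157 CPM. Of the genes that make and remove AMP, 2 lay above the summed gamma class: Ak1, the muscle adenylate kinase that yields AMP from ADP, was at 5529 and 4748 CPM and Ampd1, the muscle AMP deaminase, at 320 and 237 CPM. Adk, adenosine kinase, was at 51.5 and 79.1 CPM, and 0 of the 5 tested genes of this list passed.

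Of 10 glucose and fat response genes, 3 passed 2-fold, all higher in replicate 2, beside the 3.89% of all tested genes called that way. Fabp3, a fatty acid binding protein, had 883 and 2499 CPM and a log2 ratio of -1.50. Cd36, a fatty acid transporter, had 57.8 and 143 CPM and a log2 ratio of -1.30. Pdk4, the kinase that inhibits pyruvate dehydrogenase, had 282 and 591 CPM and a log2 ratio of -1.07. Slc2a4, the insulin-responsive glucose transporter GLUT4, had 422 and 411 CPM. The median log2 ratio over list members with at least 10 reads was -0.01 for the upstream list, -0.06 for regulators, -0.40 for the related kinases, -0.35 for substrates, 0.16 for AMP supply and removal and -0.28 for the response genes, beside -0.12 over all 8626 genes with as many reads. Less the all-gene median, AMP supply and removal was 0.28 but turned to -0.43 on annotated transcripts alone, and the response genes were -0.16 but -0.28 there. The substrates were -0.23 but -0.11 when centred on length and -0.13 at a minimum of 50 reads. The related kinases were -0.27, but -0.13 when centred on length, -0.46 on annotated transcripts and -0.016 at 50 reads. The slow fibre markers named above moved the same way as these calls, and their part in them was not tested.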

How the data were processed

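Gastrocnemius RNA of 2 libraries (1 group) was sequenced as long reads. The authors, per the file headers and each library's deposited notes, aligned reads to mm10, assigned them to GENCODE M21 transcripts or new models with TALON, 1 library at a time, and deposited raw read counts per transcript model with exon coordinates; the aligner is not stated there. Model ends can be drawn to annotated ends, and truncated molecules become incomplete splice matches, so starts are those of models.

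The 8 genes were matched by name, and counts of all their models were summed per library; CPM is per 1000000 reads of annotated genes (1107128 and 1402875). The members and gene lists were chosen with earlier results of these data known. Shares have Wilson 95% intervals (statsmodels 0.14.6) and library ratios exact binomial ones (SciPy 1.17.1). These intervals treat each read as independent and cover counting error only. Reads carry no molecular identifiers, so copies of 1 molecule, which would make the intervals too narrow, were not removed. Over 8626 genes the libraries differed by 6.21 chi-square units per degree of freedom, so both were kept. The 2-fold count used genes with at least 50 summed reads and lists at least 10. For named genes, the rule took all 8 members, their models with at least 3 reads (at most 6), the 3 most read genes of each list, those over 2-fold apart and the 3 genes nearest in level. Fibre markers were counted as fixed lists; of the other marker lists, erythroid genes had a median log2 library ratio of 0.74, tendon -0.80, endothelium -0.55, Schwann and nerve -0.38, smooth muscle -0.31, fibroblast -0.20, satellite cell -0.24 (1 gene), leukocyte -0.08 (3 genes) and adipocyte 0.62 (2 genes), and Adipoq, Plin1, Lep, Cd68 and Pax7 had no listed read. Alternatives were median-ratio scaling, edgeR 4.0.16 TMM factors, other minimums and prior counts, annotated transcripts only, no genomic models, thinning and leaving out a library. The 2-fold step was run on simulated counts that held counting error only. The real libraries differed by more than that, so the simulation does not give the error of the real calls. Sequences came from GENCODE M21 transcripts and RefSeq promoter windows (GRCm38.p6), in which 8 of 8 genes were matched by symbol.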

Additional observations from a re-analysis of the deposited data

Results flagged for a closer look

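Reads on the strand opposite to Stk11 and Prkaa2 lie outside the measurements above and exceeded the 3 reads that a count of 0 allows. At Stk11, antisense models held 15 reads in replicate 1 and 22 in replicate 2, against 37 and 39 Stk11 reads. In replicate 1 a single-exon model with 14 of them (80114810 to 80115803) reaches the annotated Stk11 start, and in replicate 2 a single-exon model with all 22 (80114809 to 80116907) covers Stk11 exon 1. At Prkaa2, antisense models held 6 reads in replicate 1 and 24 in replicate 2, spread over 4 and 9 models along the gene. The other members had at most 3 antisense reads in a library.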

How the results depend on the processing

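Leading paralogs kept their order in every alternative run. Without genomic models, the Prkaa2 share of alpha reads was 85.4%, that of Prkaa1 14.6%, the log2 ratio of Prkaa2 over Prkaa1 2.53 and that of Prkag1 over Prkag2 3.07. On annotated transcripts only, the Prkab2 share of beta reads was 66.5%, that of Prkab1 33.5%, their log2 ratio 0.97 and that of Prkag1 over Prkag2 3.08; Prkag3 over Prkag1 (0.91) no longer exceeded the spread there or on models with every coding intron. Annotated transcripts only also turned the log2 ratio of beta over alpha to -0.26, of beta over gamma to -1.66 and of Prkab2 over Prkag3 to -1.55; these 3 and the other class and neighbour alternatives were chosen after seeing the data. The Prkab2 level was 35.3 CPM on annotated transcripts and 225 CPM without genomic models. On models with every coding intron, an alternative chosen after seeing the data, Prkag2 held 4.24% of gamma reads and the log2 ratio was 2.88 for Prkag1 over Prkag2 and 3.80 for Prkag3 over Prkag2, and beta over gamma was 1.00. A prior count of 1 gave 3.05 for Prkag1 over Prkag2, whose SD was only 0.03. The cause of these shifts was not tested beyond the models each alternative leaves out.

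The list medians less that of all genes moved as follows. Centring on genes of like length gave -0.13 for the related kinases and -0.11 for substrates, a minimum of 50 reads gave -0.016 and -0.13, and annotated transcripts only gave -0.46 for the related kinases, -0.28 for the response genes and -0.43 for AMP supply and removal, which was 0.28 in the main count and so changed sign. Genes over 2-fold apart numbered 126 when centred on length and 538 of 6796 with a minimum of 20 reads, where Prkab1 was the 1 of 6 members called. Median-ratio scaling shifted the median of all tested genes by 0.14. Prkaa1 changed direction between the libraries on annotated transcripts only (0.33), and Prkab2 (-0.31) did too. Over all alternatives, 95 values for whole comparisons stayed within their limits, 21 moved and 2 lost their call; of the values for single genes, models and class sums, 161 stayed, 20 moved, 6 lost their call and 3 changed direction. Within limits means that a value moved by at most 1 SD, by 0.1 for list medians, by 1.5 times for counts, or inside its interval for library ratios, so the Prkaa1 ratio counts as stayed. Some values could not leave their limits. With 2 libraries, leaving 1 out always keeps a share, paralog ratio or level within 1 SD of the mean. List medians less that of all genes cannot change under median-ratio or TMM factors. The number that stayed is therefore not a measure of robustness.

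Prkaa1, Prkab1 and Prkag2 have 6 to 24 reads in a library, so their isoform shares are known only within wide intervals. Per-read starts are not in the files used here. No paired analysis was possible because the 2 libraries form 1 group.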
